A study of Mus musculus with 22 samples.

Results

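Expression of 10 genes of the endoplasmic reticulum (ER) unfolded protein response, Hspa5, Hsp90b1, Pdia4, Dnajb9, Herpud1, Edem1, Atf4, Ddit3, Trib3 and Xbp1, was followed through loose connective tissue held at stretched or shortened length. The genes, and the wider lists used below, were taken by name with earlier results of these data known. Shares over all probes or genes set beside them are therefore description and not an independent test. Each gene was represented by 1 array probe, the brightest on average over all 22 samples among the probes annotated to that gene alone. The 10 genes are among 12393 genes measured. The tissue was loose subcutaneous connective tissue of the trunk of male C57BL/6 mice of 19 to 24 g, with no transgene or drug named. A stretched and a shortened sample were taken within each animal, and the assignment was randomised. The 4 groups were tissue stretched ex vivo (4 animals), tissue shortened ex vivo (the same 4), tissue stretched in vivo (7 other animals) and tissue shortened in vivo (the same 7). Force and duration of stretching are not given in the sources used here, and no group was labelled as unstretched at resting length.

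Proteins that enter the ER are folded there with the help of chaperones. When unfolded protein accumulates, the sensors IRE1, PERK and ATF6 raise the transcription of chaperones, of parts of the degradation machinery and of the transcription factor CHOP. They also act through the transcription factors XBP1 and ATF4, which are regulated largely after transcription, by splicing and by translation. Fibroblasts, the main cells of loose connective tissue, secrete collagen and other matrix proteins and so pass much protein through the ER.

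ATF6 and XBP1 are known to act through the ER stress response element ERSE (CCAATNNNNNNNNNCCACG, N standing for any base) and through ERSE-II (ATTGGNCCACG). XBP1 and ATF6 also bind the core TGACGTGG, and ATF4 with C/EBP proteins binds the C/EBP-ATF element TGATGCAA. All 4 were searched on both strands of windows from 250 bases before to 50 bases after each gene's RefSeq start, in the mouse build GRCm38.p6. All 10 genes had a window. Of the 32851 windows of that table, 0.119% held an ERSE, 0.0365% an ERSE-II, 0.676% the core TGACGTGG and 0.895% a C/EBP-ATF element. The stretches of 3 genes are shown because they hold exact matches to these elements, which are in capitals, with each stretch read 5′ to 3′ on the gene's own strand.
Hspa5: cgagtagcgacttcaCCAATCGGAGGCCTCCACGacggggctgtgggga
Hsp90b1: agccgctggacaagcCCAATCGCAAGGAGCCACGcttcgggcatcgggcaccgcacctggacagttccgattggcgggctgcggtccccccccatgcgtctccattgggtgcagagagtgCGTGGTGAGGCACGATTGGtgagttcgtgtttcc
Herpud1: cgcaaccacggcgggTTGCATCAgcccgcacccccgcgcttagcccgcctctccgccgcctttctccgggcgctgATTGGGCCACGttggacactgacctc
The Hspa5 stretch (chr2:34772010-34772058, plus strand) holds 1 ERSE at positions -65 to -47 from the start. The Hsp90b1 stretch (chr10:86705518-86705671, minus strand) holds an ERSE at -212 to -194 and another, read on the opposite strand, at -107 to -89. In Herpud1 (chr8:94386302-94386402, plus strand) a C/EBP-ATF element on the opposite strand at -112 to -105 precedes an ERSE-II at -52 to -42. No exact match lay in the windows of the other 7 genes. A match describes the letters only, and binding was not measured.

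Values are log2 signals, so a difference of 1 is a doubling of the array signal. The median signal of a sample was 6.85 to 6.90 ex vivo and 7.28 to 7.41 in vivo. The main comparisons of the 2 settings therefore use values from which each array's median was subtracted. List means of cell type markers are given as deposited, so gaps between settings in them include this offset. The 14 fibroblast markers were all measured, and their mean was 10.4 to 10.9 in ex vivo samples and 11.7 to 12.2 in in vivo samples. Skeletal muscle markers (25 genes) varied more, with means of 5.19 to 10.5 in ex vivo and 5.45 to 11.4 in in vivo samples. In each setting the lowest of these means lay below the array medians and the highest above them. The Gapdh control probes for the 3′ end exceeded those for the 5′ end, a sign of RNA quality, by 0.05 to 0.91 ex vivo. In vivo the excess was 0.11 to 0.27 for animals 1 to 3, against 0.87 to 3.61 for animals 4 to 7. Array number limits the precision, and in bulk tissue fewer cells of a type and less RNA per cell cannot be told apart.

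The first comparison asked whether the response differed between stretched and shortened tissue of the same animal ex vivo. All 10 genes had a lower mean in stretched tissue, by 0.02 for Xbp1 up to 0.99 for Herpud1 on the log2 scale. None of the 10 passed an adjusted p of 0.05, as was the case for 0% of all probes. An unadjusted p under 0.05 in the lower direction was reached by 7 of the 10 and by 5.85% of all probes. The median difference of the 10 was -0.57, against 0.01 over all genes. In 7 of the 10, all but Pdia4, Atf4 and Xbp1, the stretched sample was lower in every one of the 4 animals, a pattern found in 8.9% of all genes. The 4 stretched samples lay wholly below the 4 shortened samples for Hspa5, Herpud1, Ddit3, Dnajb9 and Edem1, as for 3.3% of all genes.

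Among the chaperones, Hspa5 encodes BiP, the main Hsp70 of the ER lumen. Its log2 signal was 13.31, 13.10, 13.02 and 13.21 in stretched tissue of animals 1 to 4, against 13.51, 13.79, 13.60 and 13.51 in shortened tissue. Every stretched sample was below every shortened one, with a mean difference of -0.44 (SE 0.09, n = 4, adjusted p = 0.352 by limma). Hsp90b1 encodes GRP94, the Hsp90 of the ER. It measured 11.99, 11.70, 11.92 and 12.13 in stretched and 12.12, 12.48, 12.24 and 12.28 in shortened tissue. The groups overlapped slightly, since the highest stretched value exceeded the lowest shortened one, and the difference was -0.35 (SE 0.11, adjusted p = 0.394), or -0.20 without animal 2.

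Pdia4 encodes ERp72, a protein disulfide isomerase. It measured 9.74, 8.68, 8.71 and 8.68 in stretched and 9.41, 10.20, 9.52 and 9.23 in shortened tissue. Stretched tissue of animal 1 stood apart from the other 3 stretched samples and was the one that exceeded its shortened partner. That array also had the largest Gapdh probe difference (3′ minus 5′) ex vivo, 0.91, against 0.05 to 0.19 in the other ex vivo samples. Over the 8 ex vivo samples Pdia4 had a Pearson r of 0.286 with this measure, and a link was not tested. The mean difference was -0.64 (SE 0.27, adjusted p = 0.452), and it was -0.96 without animal 1, still short of the threshold (adjusted p = 0.199), and -0.34 without animal 2. Dnajb9 encodes ERdj4, a J-domain partner of BiP. It measured 10.98, 10.50, 10.72 and 11.15 in stretched and 11.22, 11.76, 11.41 and 11.25 in shortened tissue. These groups did not overlap, although animal 4 differed by only -0.10, and the mean difference was -0.57 (SE 0.19, adjusted p = 0.388). Without animal 2 it was -0.35.

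Both genes of ER-associated degradation, the disposal of misfolded protein through the proteasome, were lower in stretched tissue of every animal. Herpud1 encodes a membrane protein that helps to assemble the degradation complex. It measured 10.17, 9.64, 9.75 and 9.96 in stretched and 10.54, 11.68, 10.92 and 10.37 in shortened tissue. Its groups did not overlap, and the mean difference of -0.99 (SE 0.27, adjusted p = 0.363) corresponds to a stretched to shortened signal ratio of 0.502, with a 95% interval of 0.320 to 0.788. The difference was -0.65 without animal 2, whose own pair differed by -2.03. Edem1 encodes a protein that directs misfolded glycoproteins to disposal. It measured 9.69, 9.60, 9.67 and 9.81 in stretched and 10.06, 10.51, 10.28 and 10.15 in shortened tissue. The groups were separate and the difference was -0.56 (SE 0.11, adjusted p = 0.352).

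Of the transcription factors, Ddit3 (CHOP), the stress-induced C/EBP family member linked to cell death, measured 9.84, 9.59, 9.20 and 9.96 in stretched and 10.04, 11.12, 10.14 and 10.17 in shortened tissue. Its groups did not overlap and the difference was -0.72 (SE 0.23, adjusted p = 0.386), or -0.45 without animal 2. Trib3, a pseudokinase induced by ATF4 and CHOP that restrains their activity, measured 8.29, 7.99, 7.72 and 8.44 in stretched and 8.32, 9.66, 8.80 and 8.90 in shortened tissue. One stretched value lay above the lowest shortened one, every pair was lower in stretched tissue, and the difference was -0.81 (SE 0.25, adjusted p = 0.386), or -0.52 without animal 2.

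Atf4 and Xbp1 differed less. These values do not read translation or splicing, by which their products are known to be largely regulated, and a link to the smaller differences was not tested. Atf4 measured 11.45, 11.43, 11.52 and 11.86 in stretched and 11.61, 12.12, 11.66 and 11.56 in shortened tissue. The groups overlapped and the difference was -0.17 (SE 0.15, adjusted p = 0.704). It was -0.0008 without animal 2 and -0.33 without animal 4. Xbp1 measured 12.14, 12.08, 11.98 and 12.21 in stretched and 12.09, 12.20, 12.08 and 12.13 in shortened tissue, with 2 pairs higher and 2 lower. Its difference was -0.02 (SE 0.06, adjusted p = 0.932), with a 95% interval of -0.17 to 0.13.

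**Figure D1:**
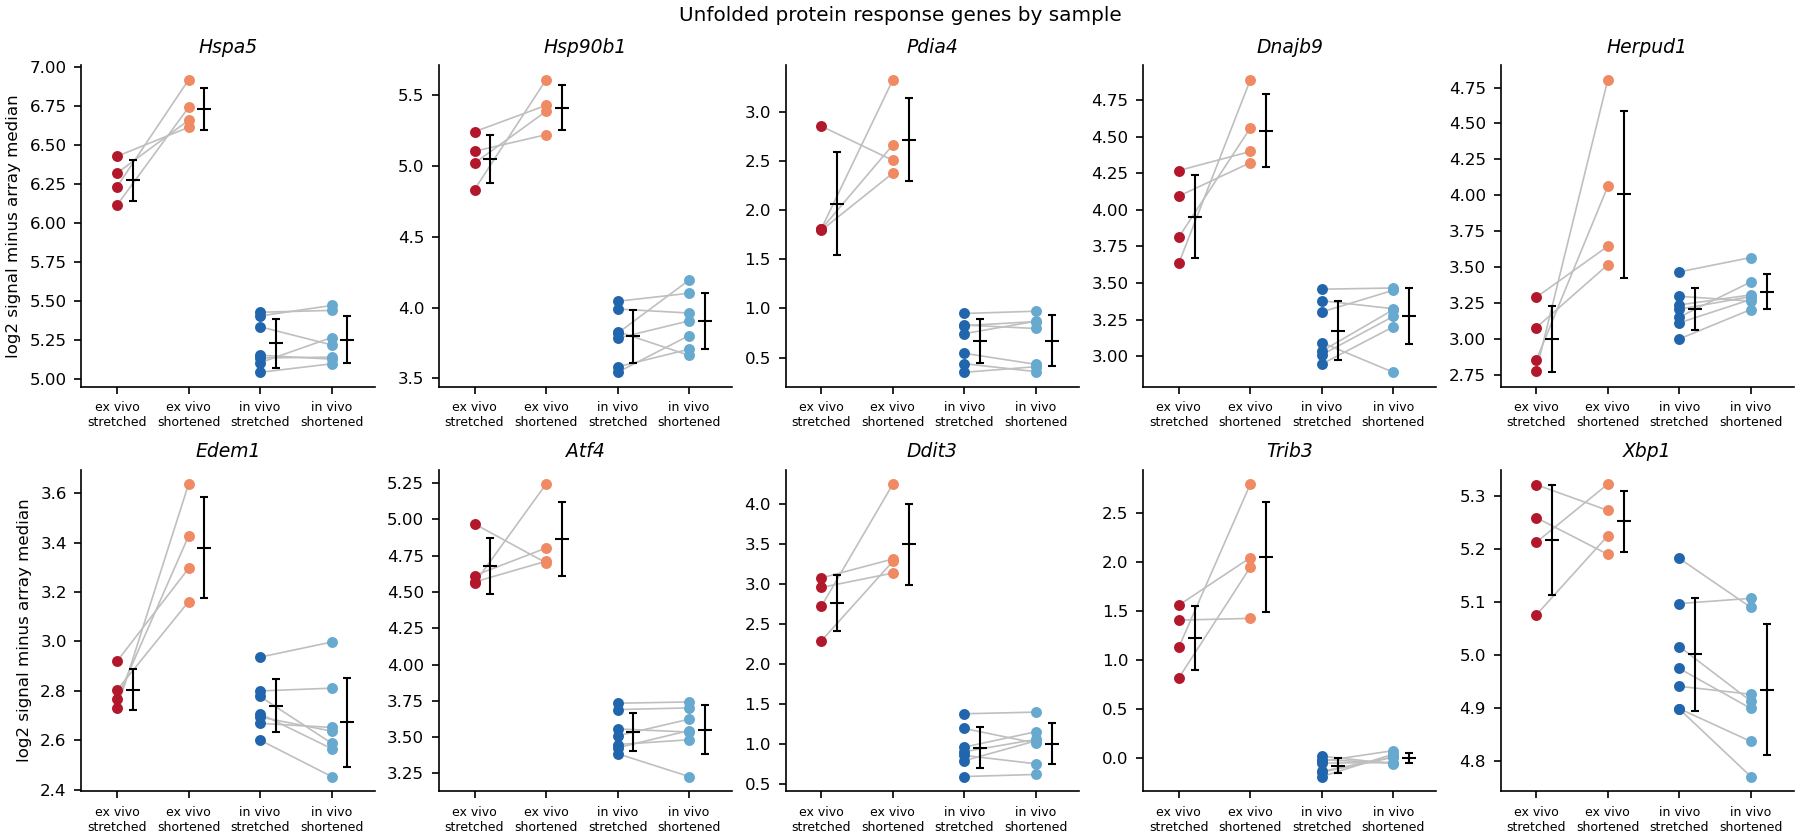
Log2 signal minus the array median (vertical axes, each with its own range) of the 10 genes in the 4 groups, 1 point per sample, grey lines joining samples of 1 animal, black bars the mean ± SD. Ex vivo points lie above in vivo points for most genes, and ex vivo stretched points lie below their shortened partners in all 4 animals for 7 genes.

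Animals differed in the size of the ex vivo difference. The median difference over the 10 genes was -0.18, -1.08, -0.66 and -0.26 in animals 1 to 4, against medians over all genes of 0.07, 0.03, -0.02 and -0.04. Animal 2 had the most negative difference in all 10 genes. Its shortened sample carried the highest signal of the 4 shortened samples for each of them. Muscle markers moved with stretch in 2 animals, with list means of 5.19 to 10.5 in stretched and 5.31 to 5.94 in shortened tissue and 24 of 25 muscle genes higher on average, none of them past the threshold. Muscle content differed by -0.31, 0.04, 3.95 and 4.54 in animals 1 to 4. The part of muscle content in the differences between animals was not tested. With muscle content as a covariate, the stretch difference of the 10 genes lay between -1.18 for Herpud1 and -0.03 for Xbp1, and none passed the threshold. It was then -0.45 for Hspa5 and -0.64 for Edem1. Atf4 measured -0.41 with the covariate and -0.17 without it, while Pdia4 measured -0.57 and -0.64. In animals 1 and 2 alone, the difference was -0.45 for Hspa5, -1.20 for Herpud1 and -0.64 for Edem1, none past the threshold. The Gapdh probe difference was higher in stretched tissue by 0.77, 0.08, 0.02 and -0.09 in animals 1 to 4, so animal 1 stood out. Its mean was 0.19 (exact two-sided sign-flip p = 0.5) and that of muscle content 2.05 (p = 0.375). With 4 pairs no exact p under 0.125 is possible, so this test cannot show that the pairs were balanced.

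**Figure D2:**
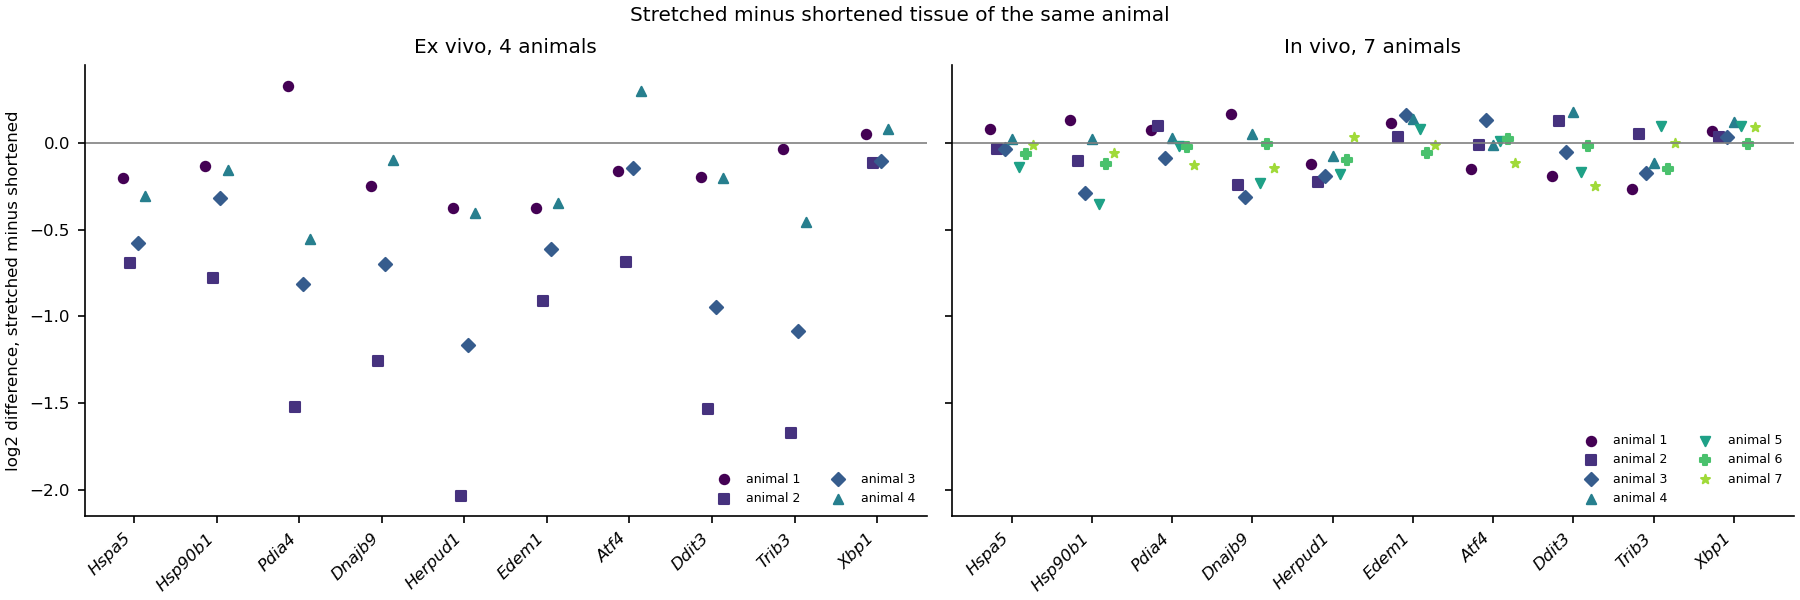
Stretched minus shortened log2 signal of the same animal (vertical axis) for each gene, 1 symbol per animal, ex vivo on the left and in vivo on the right. Ex vivo differences reach -2.03 in Herpud1 of animal 2, while in vivo differences cluster near 0.

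Other probes of the same genes gave the same sign ex vivo. The second probe measured -0.62 for Hspa5, -0.84 for Hsp90b1, -0.94 for Herpud1, -0.79 for Trib3 and -0.22 for Edem1. The dim second probe of Pdia4 measured -0.14. None passed the threshold.

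In vivo, the same comparison in 7 animals gave differences near 0 for all 10 genes, between -0.12 for Herpud1 and 0.07 for Edem1. None of the 10 passed the threshold, and again 0% of all probes did. Their median was -0.04, against -0.01 over all genes. Hspa5 had a lowest, median and highest value of 12.43, 12.52 and 12.73 in stretched and 12.42, 12.57 and 12.75 in shortened tissue, almost the same range. Its difference was -0.03, with a 95% interval of -0.10 to 0.05. Ddit3 ranged over 7.98, 8.25 and 8.67 in stretched and 8.04, 8.35 and 8.69 in shortened tissue, with a difference of -0.05 and an interval of -0.19 to 0.09. No gene of the 10 separated the groups.

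Herpud1 was the 1 gene of the 10 with an unadjusted p under 0.05 in the lower direction, where 11.4% of all probes had one. Its lowest, median and highest values were 10.33, 10.53 and 10.75 in stretched and 10.51, 10.64 and 10.85 in shortened tissue. The ranges overlapped, 6 of 7 animals were lower when stretched, and the difference of -0.12 (SE 0.04, n = 7) had an adjusted p of 0.179. Edem1 and Xbp1 had positive differences, 0.07 (SE 0.04, adjusted p = 0.401) and 0.06 (SE 0.03, adjusted p = 0.276). Muscle markers had a median list mean of 10.4 in stretched and 6.63 in shortened tissue, a mean difference of 1.61 (exact two-sided sign-flip p = 0.0625, n = 7), and with muscle content as a covariate no gene of the 10 passed either.

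In vivo, the Pdia4 signal separated the animals of lower from those of higher Gapdh probe difference, and not the lengths. For animals 1 to 3 it was 7.74 to 7.86 in stretched and 7.73 to 7.82 in shortened tissue. For animals 4 to 7 it was 8.05 to 8.24 in stretched and 8.09 to 8.26 in shortened tissue. Over the 14 in vivo samples it followed the Gapdh probe difference with a Pearson r of 0.879, a description of samples that share animals in pairs.

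Whether the stretch difference itself differed between settings was tested on all 22 samples, with 1 variance per gene taken for both settings. The ex vivo minus in vivo difference was negative for all 10 genes, from -0.08 for Xbp1 to -0.87 for Herpud1. Edem1 was the 1 gene of the 10 that passed the threshold, where 0.177% of all probes did and 0.128% did so in the lower direction. Its stretch difference was -0.56 ex vivo and 0.07 in vivo, which differ by -0.63 (SE 0.10, 95% interval -0.85 to -0.40, adjusted p = 0.0464). The Edem1 pairs were less even ex vivo (-0.91 to -0.34) than in vivo (-0.06 to 0.16). With the shared variance, the SE of 0.10 was below the 0.11 of the ex vivo difference fitted alone. An unadjusted p under 0.05 in the lower direction was reached by 7 of the 10 and by 6.74% of all probes. Hspa5 differed by -0.42 (adjusted p = 0.0677), Herpud1 by -0.87 (0.124), Trib3 by -0.73 (0.170) and Ddit3 by -0.67 (0.172). Pdia4 at -0.63 (0.242), Dnajb9 at -0.47 (0.243), Hsp90b1 at -0.24 (0.389), Atf4 at -0.15 (0.642) and Xbp1 at -0.08 (0.515) did not pass either. Ex vivo animal 2 carried much of these values. Without it the difference was -0.53 for Herpud1, -0.44 for Trib3, -0.40 for Ddit3, -0.34 for Pdia4 and -0.24 for Dnajb9. It was then -0.09 for Hsp90b1, -0.05 for Xbp1 and 0.02 for Atf4, while Atf4 measured -0.31 without ex vivo animal 4 and Pdia4 -0.96 without ex vivo animal 1.

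The Edem1 call rested on a narrow margin. It was lost without any 1 of the 7 in vivo animals (adjusted p of 0.0707 to 0.117), without ex vivo animal 2 (0.131) or 3 (0.176), with the mean of both Edem1 probes (-0.46, 0.062) and with muscle content as a covariate (-0.63, 0.0502). Without ex vivo animal 1, 5 of the 10 passed (Hspa5, Herpud1, Trib3, Pdia4 and Edem1), with 663 probes called in all, against 40 with every animal. Without ex vivo animal 4, Hspa5 and Edem1 passed, beside 331 probes in all.

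The last comparisons set ex vivo against in vivo tissue of different animals. They say how strongly the response genes were expressed in tissue held outside the body, and the labels do not tie this contrast to an aim. In shortened tissue all 10 genes were called higher ex vivo, as were 36.9% of all probes (66.5% were called in either direction). In stretched tissue 8 of the 10 were called higher, against 35.1% of all probes (63.5% in either direction). The median difference of the 10 was 1.40 in shortened and 1.09 in stretched tissue, against -0.01 and -0.02 over all genes. Ex vivo samples lay wholly above in vivo samples for 9 of the 10 in shortened tissue (26.7% of all genes) and for 7 of the 10 in stretched tissue (24.2%).

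Levels in these comparisons are log2 signals minus the array median. Ddit3 averaged 2.76 ± 0.35 in ex vivo stretched tissue (SD, n = 4) and 0.96 ± 0.26 in in vivo stretched tissue (n = 7). In shortened tissue it averaged 3.50 ± 0.51 ex vivo and 1.01 ± 0.26 in vivo. The lowest ex vivo value, 2.29, was above the highest in vivo value, 1.40, so the settings were fully separate. Ddit3 was 5.61-fold higher ex vivo in shortened tissue (95% interval 4.15 to 7.59, adjusted p = 2.58e-07).

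Trib3 averaged 1.22 ± 0.33 in ex vivo stretched and -0.08 ± 0.08 in in vivo stretched tissue, and 2.05 ± 0.56 in ex vivo shortened and -0.01 ± 0.05 in in vivo shortened tissue. Its in vivo signal thus lay at the array median. The difference in shortened tissue was 2.06 (adjusted p = 8.13e-07). Atf4, whose product induces both Ddit3 and Trib3, was higher ex vivo by 1.14 in stretched and 1.31 in shortened tissue, and its groups did not overlap in either.

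Among the chaperones, Hspa5 averaged 6.27 ± 0.13 ex vivo and 5.23 ± 0.16 in vivo in stretched tissue, and 6.73 ± 0.13 ex vivo and 5.25 ± 0.15 in vivo in shortened tissue. In shortened tissue this was a 2.79-fold difference (95% interval 2.46 to 3.18, adjusted p = 1.24e-08). Hsp90b1 rose ex vivo by 1.25 in stretched and 1.51 in shortened tissue. Pdia4 rose by 1.40 and 2.05, and Dnajb9 by 0.78 and 1.27, again in stretched and shortened tissue. All 4 chaperone genes separated the settings at both lengths.

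The degradation genes and Xbp1 showed the smallest differences. Edem1 was called higher ex vivo in shortened tissue (0.71, adjusted p = 1.19e-04) but measured 0.06 in stretched tissue (adjusted p = 0.521), where its second probe was called higher at 0.47 (adjusted p = 0.0154) and the mean of both probes at 0.29 (adjusted p = 0.0146). Herpud1 was called higher in shortened tissue (0.68, adjusted p = 0.00732) and measured -0.21 in stretched tissue (adjusted p = 0.124). These 2 contrasts use different samples of the same animals, and the test of their difference is the one given above for the stretch effect. Xbp1 was 0.22 higher ex vivo in stretched (adjusted p = 0.0231) and 0.32 higher in shortened tissue (adjusted p = 0.00143), and with the deposited values this sign turned.

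**Figure D3:**
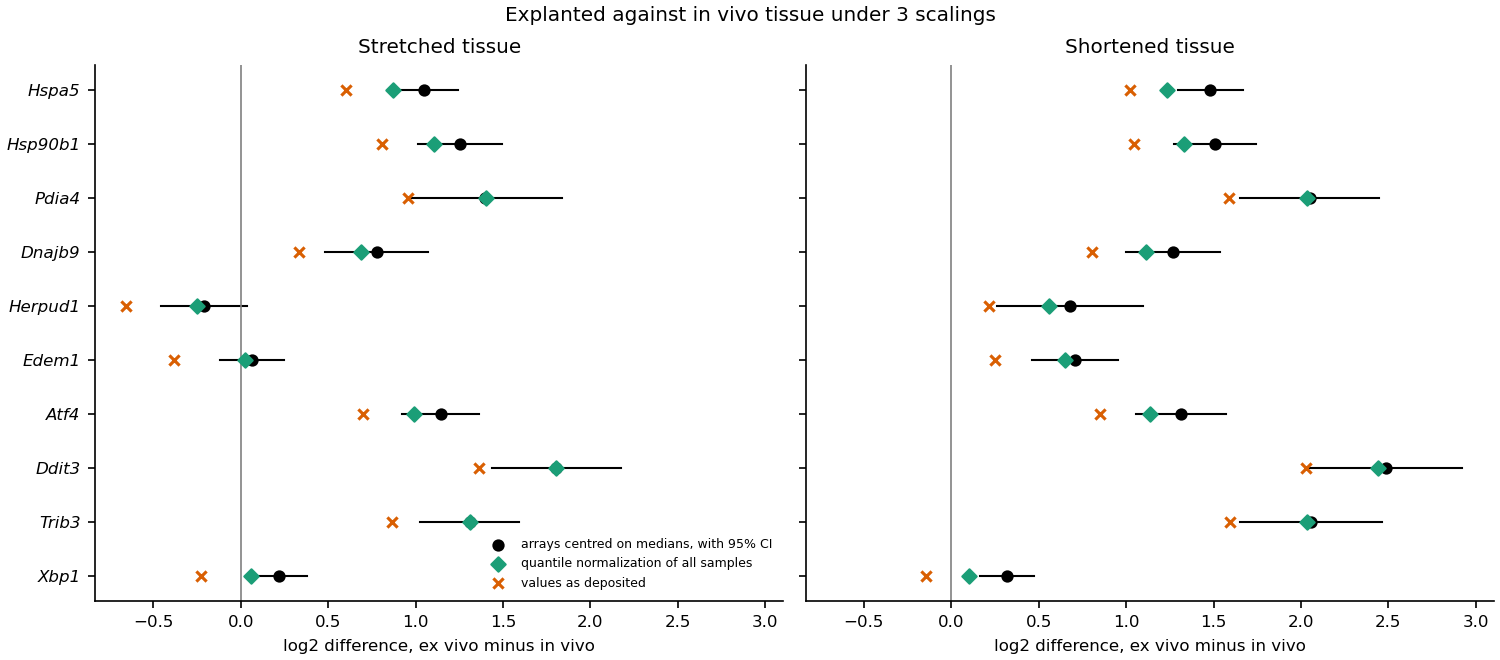
Ex vivo minus in vivo log2 difference (horizontal axis) of each gene in stretched tissue on the left and shortened tissue on the right. Black points with 95% intervals have arrays centred on their medians, diamonds follow quantile normalization of all samples, and crosses are the deposited values, in which Xbp1 lies below 0 on both sides.

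How far these levels hold depends on the scaling between settings. With the deposited values the median over all genes itself was -0.48 in shortened and -0.46 in stretched tissue, and 23.8% and 23.3% of the calls over all probes were in the higher direction, against 55.5% and 55.3% after centring and 48.7% and 49.5% after quantile normalization. As deposited, 3943 of the 22626 probes were called higher and 12607 lower in shortened tissue, and 3719 and 12260 in stretched tissue. How many of all probes were called higher at both lengths under all 3 scalings was not counted. Hspa5, Hsp90b1, Pdia4, Dnajb9, Atf4, Ddit3 and Trib3 stayed called higher ex vivo at both lengths under all 3 scalings. Their lowest deposited difference was 0.33, for Dnajb9 in stretched tissue (adjusted p = 0.0343). As deposited, Edem1 measured 0.25 and Herpud1 0.22 in shortened tissue, neither past the threshold, and both were called lower ex vivo in stretched tissue, at -0.38 and -0.66. Xbp1 as deposited was -0.14 in shortened and -0.23 in stretched tissue. After quantile normalization it was 0.10 and 0.06, not past the threshold, so 9 of the 10 were called higher in shortened tissue (32.7% of all probes) and 7 in stretched tissue (31.8%).

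Probes of a gene agreed for most genes in shortened tissue. The second probes measured 2.07 for Hspa5, 1.76 for Hsp90b1, 2.53 for Trib3, 0.74 for Herpud1 and 0.79 for Edem1, and the other Atf4 probes 3.38 and 2.41, all called higher ex vivo. They disagreed for Xbp1, whose other 3 probes measured -0.03, -0.07 and -0.19, none past the threshold. The dim second Pdia4 probe measured 0.03. In stretched tissue the other Xbp1 probes measured -0.09, -0.16 and -0.59, and the second probes of Pdia4 and Herpud1 -0.22 and -0.13, none past the threshold. The calls for Xbp1 and Pdia4 therefore rest on the chosen probe.

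Cell type markers also differed between settings. In shortened tissue, 9 of 10 macrophage markers were called lower ex vivo, with list means of 8.57 to 9.53 ex vivo and 11.8 to 12.3 in vivo as deposited. Of the fibroblast markers 10 of 14 were called lower and 2 higher, and of the adipocyte markers 7 of 9 were called lower. Other lists had more calls higher ex vivo, endothelial markers with 4 of 9 higher and 2 lower (median 0.88) and neutrophil markers with 4 of 8 higher and 2 lower (median 0.37), although the neutrophil median was -0.10 as deposited. Plasma cell markers, from a cell type rich in ER, split into 3 called lower and 2 called higher of 5. Their list mean was 6.47 to 7.02 ex vivo and 8.14 to 8.84 in vivo as deposited. The part of these changes in the response genes' levels was not tested. All 10 genes stayed called in shortened tissue against in vivo animals 1 to 3 alone, against animals 4 to 7 alone and with muscle content as a covariate. In stretched tissue 8, 7 and 8 did. The main fits called 66.5% of all probes in shortened and 63.5% in stretched tissue, in either direction. Shares over all probes in the other fits are not given here, so these counts do not set the genes apart. Setting, animals, tissue handling and array processing cannot be told apart in this contrast.

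Beyond the 10 genes, 124 of 132 listed genes of the wider pathway were measured, in 5 lists that exclude them. The targets of ATF4 and the integrated stress response, which supply amino acids, tRNA charging and one-carbon units, showed the most calls. In shortened tissue 27 of 38 were called higher ex vivo and 3 lower, with a median of 0.90, where 36.9% of all probes were called higher and 29.6% lower. In stretched tissue 24 were called higher and 5 lower, with a median of 0.67, where 35.1% of all probes were called higher and 28.4% lower. The counts of the other lists in shortened tissue stand against the same 36.9% and 29.6%. Slc7a11, the cystine carrier, was higher by 4.70 in stretched and 4.90 in shortened tissue. Shmt2, a mitochondrial serine enzyme, was higher by 2.67 and 2.98, and Slc7a5, a carrier of large neutral amino acids, by 2.58 and 2.26. Mthfd2, of mitochondrial folate metabolism, was higher by 2.53 in shortened tissue, and Slc3a2, the partner chain of both carriers, by 1.51 in stretched tissue. As deposited, 22 of the 38 were called higher and 6 lower in shortened tissue, with a median of 0.44, and 14 and 8 in stretched tissue. Of all 22626 probes, 3943 were then called higher and 12607 lower in shortened tissue, and 3719 and 12260 in stretched tissue.

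ER chaperones and folding enzymes were more mixed, with 13 of 25 called higher ex vivo and 5 lower in shortened tissue and a median of 0.19. Ero1a, the oxidase that supplies disulfide bonds, was higher by 2.69 in stretched and 3.87 in shortened tissue, and the secreted stress factor Manf by 1.58 and 2.07. Erp29, a chaperone-like protein of the ER lumen, had differences of -1.08 and -1.12. Fkbp7, a prolyl isomerase of the ER, had a difference of -1.34 in shortened tissue, and the lectin chaperone Canx was higher by 1.34 in stretched tissue. As deposited, 8 of this list were called higher and 12 lower in shortened tissue, with a median of -0.27. Of all 22626 probes 3943 were then called higher and 12607 lower, and the median over all genes was -0.48.

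Degradation genes counted 11 of 19 called higher and 3 lower in shortened tissue (median 0.29), with Derl2 of the retrotranslocation channel at 1.05, Ubxn4 at 0.98, and Ufd1 and Nploc4, partners of the extraction ATPase, at 0.99 and 0.92. In stretched tissue the difference of Selenok was -0.48. Genes of ER import and export counted 15 of 28 higher and 5 lower (median 0.21). There the coat protein Sec23b was higher by 1.20, the signal recognition particle receptor Srpr by 0.83 and the signal peptidase subunit Spcs3 by 0.65, while the export GTPase Sar1a fell by 0.86. In stretched tissue the coat protein Sec31a fell by 0.70 and Sar1a by 0.80. Both lists also turned as deposited, to medians of -0.17 and -0.26 with 5 higher and 8 lower, and 5 higher and 17 lower.

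The sensors and their partners had 6 of 14 called higher and 4 lower in shortened tissue, with a median of -0.08. These counts lie near the shares over all probes, 36.9% higher and 29.6% lower. Ern1, which encodes IRE1, was higher by 1.22 in stretched and 1.29 in shortened tissue, and its adaptor Traf2 by 1.78 and 1.82. Mbtps1, a protease that cleaves ATF6, had differences of -0.96 and -1.18, and Creb3l1, a membrane-bound transcription factor, of -1.90 and -1.69. As deposited 4 were called higher and 8 lower in shortened tissue, beside 3943 higher and 12607 lower of all 22626 probes.

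**Figure D4:**
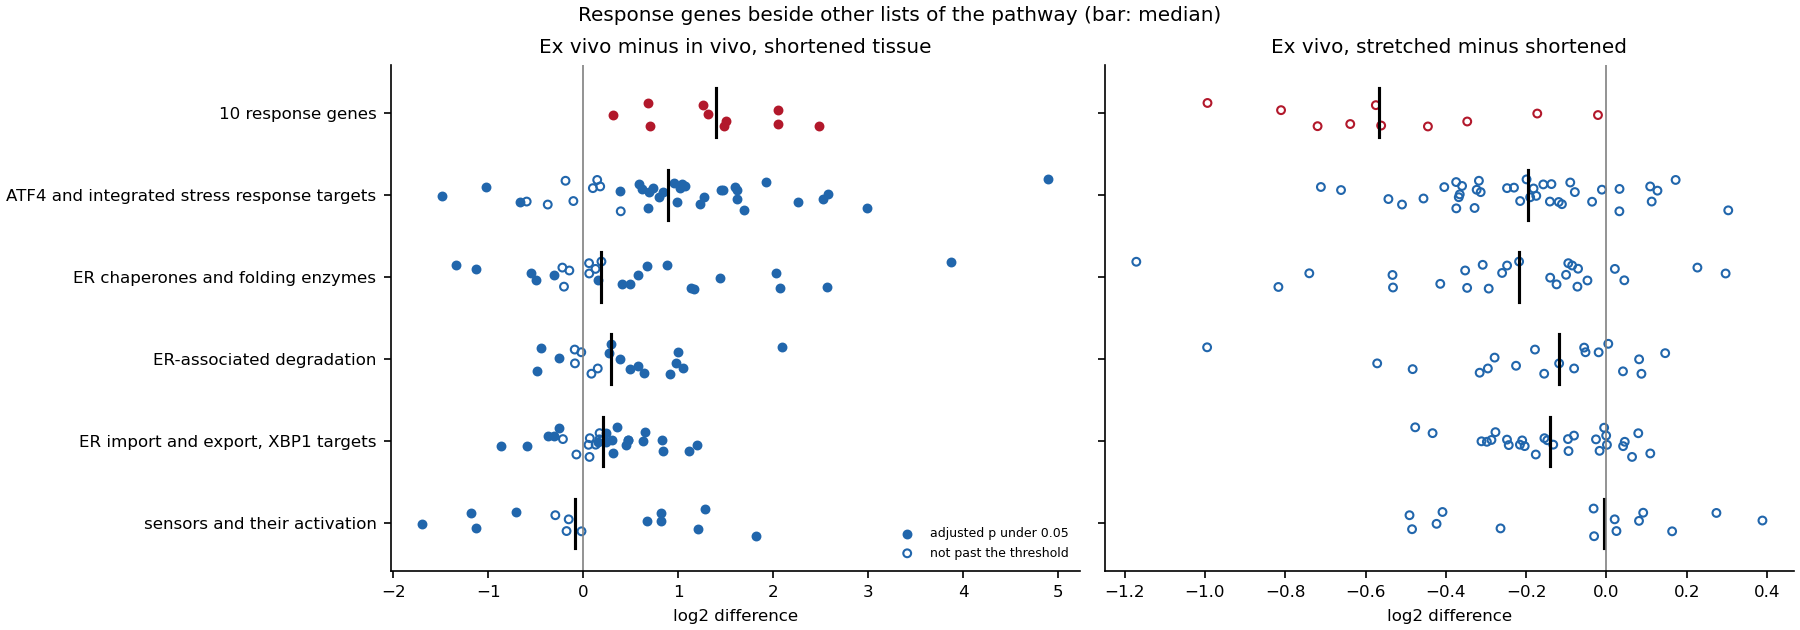
Log2 differences (horizontal axes) of the 10 genes in red and of the measured genes of 5 wider lists in blue, 1 point per gene, filled where the adjusted p is under 0.05, with a black bar at each median. On the left, ex vivo minus in vivo in shortened tissue, where 27 of 38 ATF4 targets are called higher. On the right, ex vivo stretched minus shortened, where no gene is called.

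No gene of the 5 lists passed the threshold for stretch, in either setting, or for the difference between settings. Ex vivo, 21 of 25 chaperones and folding enzymes had a negative stretched minus shortened difference (median -0.22), as had 14 of 19 degradation genes (-0.12), 22 of 28 import and export genes (-0.14), 31 of 38 ATF4 targets (-0.19) and 7 of 14 sensor genes (-0.01). Over all genes the share with a positive difference was 52.4%. An unadjusted p under 0.05 was reached by 11 of the 25, 6 of the 19, 10 of the 28, 12 of the 38 and 5 of the 14 genes of these lists, in either direction, and by 11.1% of all probes. By smallest p, Ero1a measured -1.17 and Manf -0.53, the degradation genes Sel1l -0.57 and Selenok -0.28, and Ssr3 and Spcs2 of the import machinery -0.31 and -0.29. Of the ATF4 targets, Nupr1 measured -0.36 and Cebpb 0.30, and of the sensor list Eif2ak3, which encodes PERK, -0.41 and Wfs1 -0.48. Adjusted p-values of these 10 were 0.352 to 0.386.

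In vivo the medians of the 5 lists lay between -0.07 for chaperones, where 7 of 25 had an unadjusted p under 0.05, and 0.01 for ATF4 targets, where 15 of 38 did, against 19.3% of all probes. The named values were -0.23 for Slc7a5, 0.34 for Eif4ebp1, -0.19 for Dnajc3, -0.16 for Fkbp7, -0.12 for Ssr4, -0.25 for Kdelr3, -0.13 for Ube2j1, 0.12 for Ube2g2, -0.14 for Mbtps1 and -0.23 for Creb3l1. For the difference between settings, Ero1a came nearest to the threshold at -1.16 (adjusted p = 0.0535), followed by Manf at -0.48 (0.0809), Sars at -0.45 (0.0887), Eif4ebp1 at -0.57 (0.0899) and Derl1 at -0.54 (0.0975). Lman1 measured -0.27, Ssr3 -0.24, Selenok -0.21, Wfs1 -0.45 and Bak1 0.46.

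The 10 genes varied together ex vivo more than in vivo. Over the 45 gene pairs the Pearson correlation had a median of 0.854 across the 8 ex vivo samples, with all 45 positive, and of 0.199 across the 14 in vivo samples, with 30 positive. Samples of 1 animal and of 1 length enter these values together, so they describe the data and were not tested. With each setting's mean removed, the gene outside the 10 most like Hspa5 over all 22 samples, of 8502 compared, was Creld2 (r of 0.945 over all samples, 0.952 ex vivo and 0.936 in vivo), followed by Dleu2 (0.846) and Pfkp (0.833). Those most like Ddit3 were Angptl6 (0.866), Col6a2 (0.861) and Rdh5 (0.839). Over all samples, Hspa5 was least like Atf4 among the 10 genes, at 0.272, with 0.611 ex vivo and -0.477 in vivo. Within settings its lowest values were with Xbp1 ex vivo (0.476) and with Trib3 in vivo (-0.51).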

How the data were processed

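RNA of 22 connective tissue samples was measured on arrays. Per the submitters' processing notes the authors used RMA and the affy package (versions not stated), and the deposited values were log2 signals (1.89 to 14.38). The settings looked normalized separately. The tables held 22690 probes, of which 22626 were tested once 64 controls had been removed. A total of 20380 carried 1 gene symbol, 691 several and 1555 none. Each gene had 1 probe, the brightest.

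Fits used limma 3.58.1 in R 4.3.3 (lmFit, eBayes with trend, Benjamini-Hochberg over all probes, threshold 0.05). Stretch was fitted with animal as a block, since the series design compares within animals. Samples of 1 animal correlated in their deviations (r 0.385 to 0.867 in vivo, 0.109 to 0.284 ex vivo). Settings were compared after subtracting array medians. The fits were tested on simulated data.

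All 10 genes are named. Of each list, up to 4 genes past the threshold with the smallest p are named, or the 2 with the smallest p, and the 3 genes most like Hspa5 and Ddit3. The genes and lists were chosen with earlier results of these data known. Alternatives covered normalization, a mean of at least 6, trend, robust fits, block, muscle content, RNA quality, probe choice and each animal left out.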

Additional observations from a re-analysis of the deposited data

Results flagged for a closer look

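In groups of 4 to 10 samples the highest and lowest values were checked with Dixon's ratio, which by chance marks about 1 in 20 groups, and 2 of 60 groups of the response genes were marked. Ddit3 in ex vivo shortened tissue of animal 2 was 11.12, with a ratio of 0.881 for its gap to the other 3. Pdia4 in ex vivo stretched tissue of animal 1 was 9.74, with a ratio of 0.970.

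The stretch effect on Edem1 differed between settings by the test of that difference, at -0.63 (ex vivo minus in vivo, adjusted p = 0.0464 by limma, with 1 variance for both settings). This call was lost in 9 of 11 fits with 1 animal left out. It was also lost with the mean of both probes, without the trend, with no replicate block and with muscle content as a covariate. The second Edem1 probe measured -0.30 (adjusted p = 0.214).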

How the results depend on the processing

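Under every alternative run, 0 of the 10 genes were called for stretch in either setting, and 7 to 10 were called between settings at each length, of which 3 were lower ex vivo in stretched tissue as deposited. The main fits between settings called 66.5% of all probes in shortened and 63.5% in stretched tissue. The stretch difference between settings changed most. There 40 probes and 1 gene, Edem1, were called. The counts were 74 probes with a mean of at least 6, 4 without the trend, 3 with no replicate block, 11 with muscle content as a covariate and 9 without the pairs of largest muscle difference, and 0 to 663 with an animal left out. Of the 10 genes, 0 were called without the trend, with the mean of all probes, with no replicate block, with muscle content and without those pairs, and 0 to 5 with an animal left out. The block on animals is part of the stretch fits, and without it, no gene of the 10 was called within a setting either. In stretched tissue, ex vivo against in vivo, 14372 probes became 9473 with a mean of at least 6, since fewer probes were tested. Signs near 0 turned, the cause not tested. In vivo, Pdia4 measured 0.045 with all probes, 0.0068 after quantile normalization, 0.0266 with muscle content and 0.0314 in animals 1 to 3, and -0.0232 to 0.0143 with an animal left out. Hspa5 measured 0.0316 with muscle content, 0.005 without the pairs of largest muscle difference and 0.0049 in animals 1 to 3. With muscle content Hsp90b1 measured 0.0149 and Ddit3 0.0063. Atf4 spanned -0.0426 to 0.0039 in vivo and -0.3119 to 0.0172 in the stretch effect between settings with an animal left out. Ex vivo, Xbp1 was 0.0091 after quantile normalization and -0.0551 to 0.01 with an animal left out. Between settings as deposited, Xbp1 was -0.1431 in shortened and -0.228 in stretched tissue, and Edem1 -0.38 in stretched tissue. In stretched tissue with all probes, Xbp1 was -0.1387, and Edem1 gained a call at 0.2853. Leaving out the muscle pairs, and muscle content as a covariate between settings, were chosen after seeing the data.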
